A study of Mus musculus with 18 samples.

Results

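Lung tumours that arose in mice breathing cobalt metal aerosol were compared here with lung tumours that arose without cobalt, gene by gene. The comparison set 6 cobalt tumour arrays against 6 spontaneous tumour arrays, which are 12 of the 18 arrays of the study. All 18193 genes that the array measured with a probe set carrying a single gene symbol were members, with 1 probe set per gene, the one with the highest mean over the 18 arrays. The test was fitted on the 12 tumour arrays alone, and the other 6 arrays, of control lung, served as a reference level.

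The animals were B6C3F1/N mice, 5 to 6 weeks old when exposure began. Cobalt tumours came from the lungs of mice that inhaled cobalt metal particles 6 hours a day on 5 days of each week, over a period of at most 105 weeks. The exposed mice of the study breathed 5, 2.5 or 1.25 mg/m3. Spontaneous tumours carry no treatment in their labels beyond that name, and control lungs came from mice given the vehicle. Tumours were cut out of the lung around them and frozen, and their RNA was amplified and put on an Affymetrix mouse 3' expression array. The labels leave out the concentration behind a given cobalt tumour, the age of a mouse at sampling and the sex of each animal. They do not say whether a group's arrays are of different animals, so the p-values measure the spread between these samples, which may be technical in part. Control 6 was kept as a control by its title, source and group, although its description calls it a spontaneous tumour. Tumour groups were each set against control lung in the study's stated design and not against each other. Values are log2 units of RMA, a method that normalises the arrays to a common distribution, so a difference of 1 is a doubling. In whole tumours, fewer cells of a type and less RNA per cell cannot be told apart.

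Mouse lung adenomas and carcinomas of the alveolar and bronchiolar kind mostly carry the programme of alveolar type 2 cells, which make surfactant. Cobalt ions stabilise the hypoxia-inducible factors by blocking the enzymes that mark them for destruction, and cobalt metal particles release reactive oxygen species that can act on the NRF2 and p53 pathways. Metallothioneins bind metal ions and are induced through the metal-sensing factor MTF1. A tumour that formed over most of a lifetime also carries macrophages, fibroblasts and vessels, whose RNA is in every array.

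Several arrays stood apart before any gene was tested. Cobalt tumour 6 correlated with the control lungs at a mean r of 0.969 across genes and with the other cobalt tumours at 0.945, whereas the other cobalt tumours correlated with the controls at 0.891 to 0.925. The first principal component of all 18 arrays, which took 52.8% of the variance, placed the controls at -67.7 to -63.7, cobalt tumour 6 at -24.5 and the other tumours at 17 to 60.6. Spontaneous tumours 2 and 6 lay apart from the other tumours on the first component of the 12 tumour arrays, at 59.3 and 53.6 against -26.2 to 25.1. Results that rest on these arrays are given with and without them. Correlations are across genes, which are not independent replicates.

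One gene passed the test in this comparison. With limma and Benjamini-Hochberg adjustment over 18193 genes, 1 gene (0.00550%) was higher in cobalt tumours at an adjusted p under 0.05 and 0 genes were lower. Without adjustment, 1629 genes (8.95%) had a p under 0.05, 600 (3.30%) of them higher and 1029 (5.66%) lower in cobalt tumours, and by the exact permutation test over all assignments of the 12 arrays to 6 and 6 662 (3.64%) were higher and 971 (5.34%) lower. After adjustment the permutation test called 0 genes. Its smallest possible p of 0.00216 was reached by 112 genes, and at that number of genes it gave an adjusted p of 0.352. All 6 arrays of one group lay above all 6 of the other for 112 genes (0.616%), of which 35 (0.192%) were higher and 77 (0.423%) lower in cobalt tumours.

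The size of what could be seen was limited by the spread among tumours. The median gene had a 95% interval of 0.29 log2 units on either side of its difference, and for 15855 genes (87.1%) the interval lay within 2-fold in both directions. Differences of at least 2-fold, tested or not, were found for 88 genes higher and 161 genes lower in cobalt tumours, and differences of at least 4-fold (2 log2 units) for 8 and 5. An adjusted p under 0.25 was reached by 9 genes, 4 higher and 5 lower. Fitting all 18 arrays together called 15 genes (0.0824%), 8 higher and 7 lower. Arrays of control lung, which enter that estimate of the spread, had a median SD per gene of 0.159 against 0.221 in cobalt and 0.220 in spontaneous tumours.

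**Figure D1:**
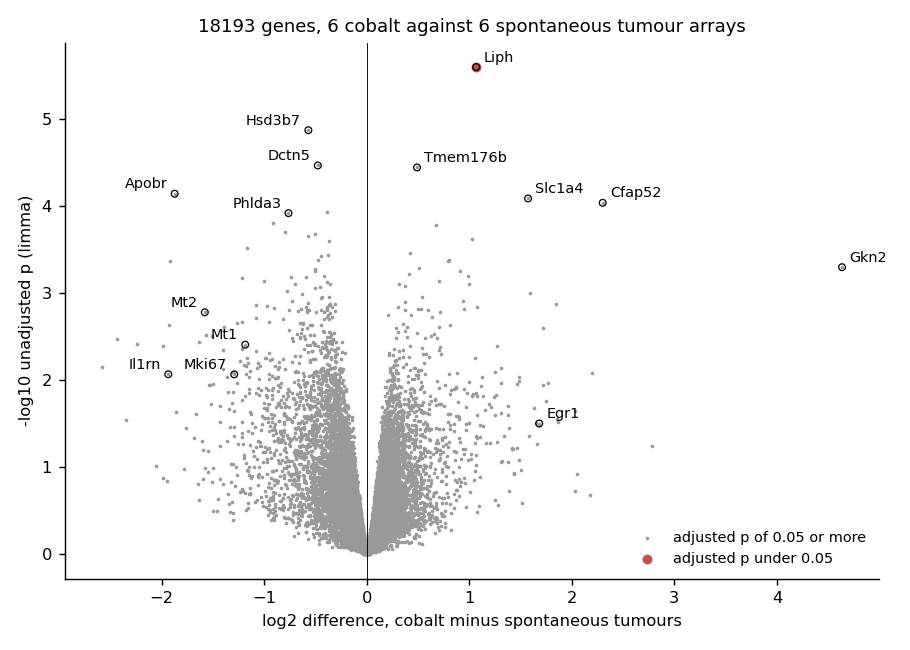
Each point is 1 of 18193 genes, with the log2 difference of cobalt minus spontaneous tumours (6 arrays each) on the horizontal axis and -log10 of the unadjusted limma p on the vertical axis. Liph, in red, is the gene past an adjusted p of 0.05, and Gkn2 has the largest difference, at 4.64.

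Liph, on chromosome 16, encodes lipase H, an enzyme of the cell surface that makes the signalling lipid lysophosphatidic acid. Its lowest, median and highest log2 values were 9.10, 9.48 and 9.70 in spontaneous tumours and 10.21, 10.46 and 10.82 in cobalt tumours. The groups did not overlap, and the spontaneous tumours lay around the level of control lung (9.42 ± 0.14, SD, n = 6). Liph rose by 1.07 log2 units in cobalt tumours (SE 0.129, 95% interval 0.79 to 1.35, limma adjusted p = 0.0467). Another Liph probe set, dimmer at a tumour mean of 6.08, was higher by 0.79 (SE 0.157). The call sits close to its threshold: it was lost when any of 11 of the 12 arrays was left out, with adjusted p-values of up to 0.192, and kept without cobalt tumour 2. Over these 12 fits the difference ran from 1.00 to 1.13.

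Gkn2, on chromosome 6, encodes gastrokine 2, a protein secreted by the stomach lining. Among all genes it had the largest difference, 4.64 (SE 0.985, 95% interval 2.49 to 6.78, limma adjusted p = 0.345). Its values ran from 5.82 through a median of 9.68 to 13.31 in spontaneous tumours and from 13.20 through 14.22 to 14.99 in cobalt tumours, against 6.18 ± 0.41 (SD, n = 6) in control lung. Every cobalt tumour was high, cobalt tumour 6 included, while spontaneous tumour 1 lay at the level of control lung and spontaneous tumour 4, at 13.31, reached into the cobalt range. In the fit over all 18 arrays its adjusted p was 0.0380.

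Slc1a4, which encodes a transporter of alanine, serine and cysteine, had values of 9.13, 9.54 and 9.87 (lowest, median and highest) in spontaneous tumours and 10.38, 11.05 and 11.95 in cobalt tumours. The groups did not overlap, and control lung was at 9.03 ± 0.31 (SD, n = 6). The difference was 1.57 (SE 0.271, limma adjusted p = 0.241). That value rests on 1 of 3 probe sets: the other two, dimmer, differed by -0.10 and -0.08. Cfap52, a protein of motile cilia, was at 6.56, 7.39 and 7.98 in spontaneous tumours and 8.15, 9.62 and 10.77 in cobalt tumours, a difference of 2.30 (SE 0.401, limma adjusted p = 0.241). It was the 1 of 26 measured genes of ciliated cells (3.85%) at an unadjusted p under 0.05, beside 3.30% of all genes higher. The median difference of that list was 0.07.

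Tmem176b, a membrane protein of the endosomes of immune and other cells, differed by 0.49 (SE 0.077, limma adjusted p = 0.166) and did not overlap between the groups. Rasgef1b, an exchange factor for Ras-family proteins, was higher by 1.03, Ppp1r32 by 0.67, Lrrc10b by 0.80, the dehydrogenase Dhdh by 0.79 and the DNA helicase Helb by 0.51, with limma adjusted p-values from 0.275 to 0.345. Rasgef1b, Dhdh and Helb did not overlap between the groups. For Tmem176b, Dhdh, Helb, Cfap52, Ppp1r32 and Lrrc10b the mean of the spontaneous tumours lay below that of control lung, and for Ppp1r32 and Lrrc10b all 6 cobalt values except the highest of Lrrc10b, 8.72, were also below the control mean.

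Among the genes lower in cobalt tumours, Hsd3b7, an enzyme of bile acid synthesis, had the smallest p. Its values were 9.77, 9.86 and 10.03 (lowest, median and highest) in spontaneous tumours and 9.16, 9.30 and 9.51 in cobalt tumours, and control lung was at 9.50 ± 0.16 (SD, n = 6). The difference was -0.57 (SE 0.081, limma adjusted p = 0.124), with no overlap. Apobr, a receptor of macrophages for lipoproteins that carry apolipoprotein B, had a larger difference of -1.87 (SE 0.318, limma adjusted p = 0.241). Its spontaneous tumours were at 8.35, 8.56 and 10.33 and its cobalt tumours at 6.62, 7.19 and 7.35, and spontaneous tumours 2 and 6 were the highest. With those arrays left out the difference was -1.39 and passed the test (limma adjusted p = 0.0282).

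The dynactin subunit Dctn5 differed by -0.48 (limma adjusted p = 0.166) and Vps35l, a subunit of the retriever complex that returns membrane proteins from endosomes, by -0.39 (0.246). The dimmer probe sets of Vps35l differed by -0.69, -0.04, 0.06 and 0.11. Hsd3b7, Apobr, Dctn5 and Vps35l are all on chromosome 7. Of the 916 genes there outside the 6064 dimmest, 10.8% were lower at an unadjusted p under 0.05, beside 7.63% of all such genes. Phlda3, a p53 target that restrains AKT, differed by -0.76 (0.246) and the collagen VI chain Col6a3 by -0.80 (0.285). Rexo2, a nuclease of mitochondria, differed by -0.50, the aminopeptidase Rnpep by -0.58 and the selenocysteine lyase Scly by -0.38, with limma adjusted p-values from 0.285 to 0.331. The groups overlapped for Scly and for none of the others in this paragraph. Phlda3, Col6a3, Rnpep and Scly are on chromosome 1, where 15.7% of genes outside the dimmest were lower at that threshold.

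**Figure D2:**
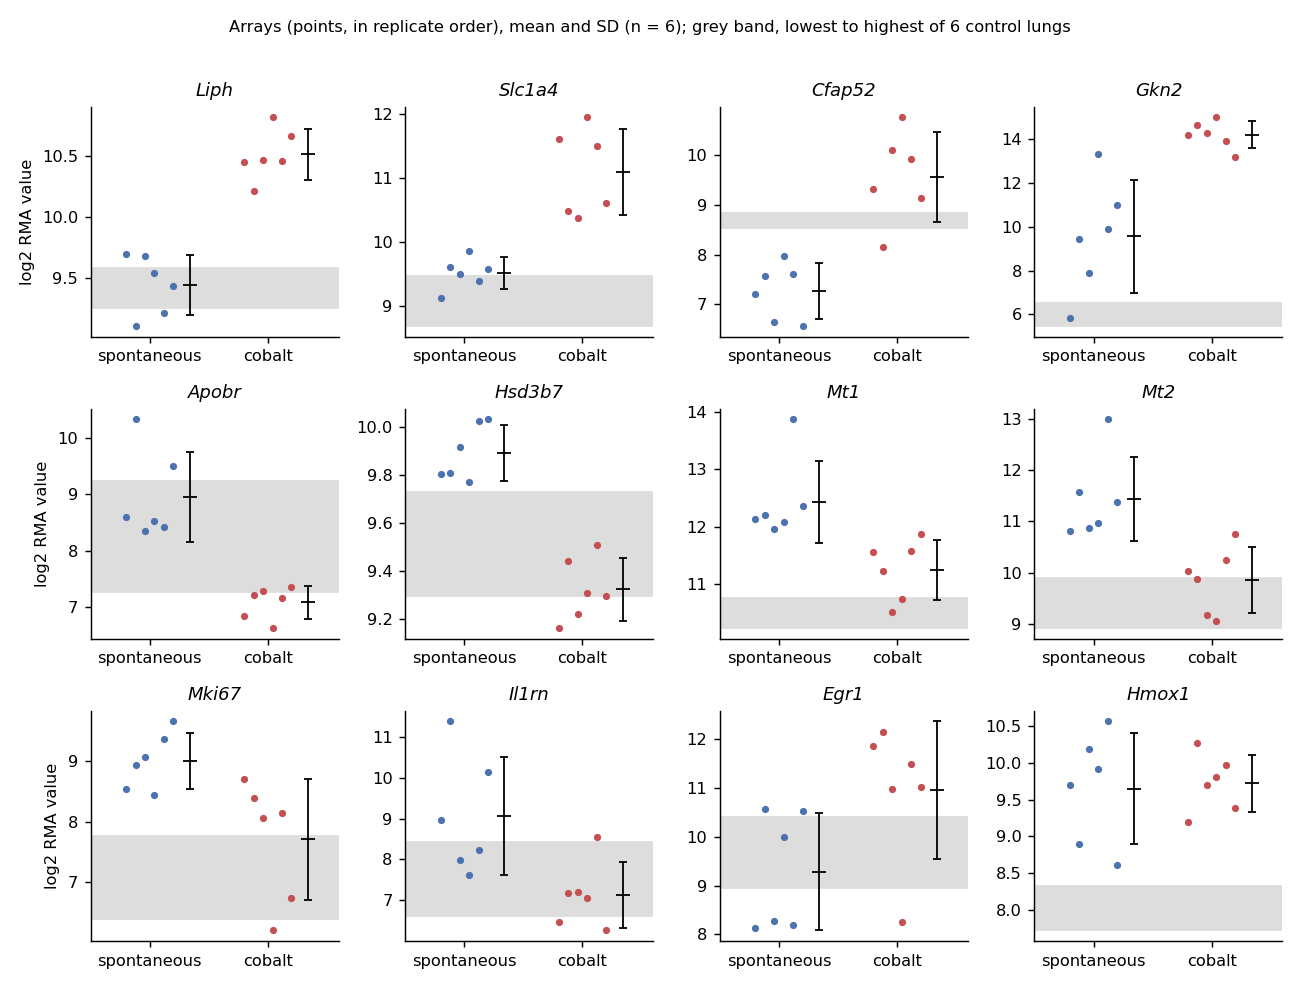
Log2 RMA values of 12 genes in the 6 spontaneous (blue) and 6 cobalt (red) tumour arrays, in replicate order, with the mean and SD beside each group and the range of 6 control lungs as a grey band; each panel has its own axis. Liph, Slc1a4, Cfap52, Apobr, Hsd3b7, Mt1 and Mt2 show no overlap between the tumour groups, while Hmox1 spans 8.62 to 10.56 in spontaneous and 9.20 to 10.27 in cobalt tumours.

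Mt1 and Mt2, the abundant metallothioneins, were lower in cobalt tumours than in spontaneous tumours, with no overlap between the groups but short of the adjusted threshold. Mt2 was at 10.82, 11.17 and 12.99 (lowest, median and highest) in spontaneous tumours and 9.05, 9.95 and 10.76 in cobalt tumours, a difference of -1.58 (SE 0.392, 95% interval -2.43 to -0.73, limma adjusted p = 0.350). Mt1 was at 11.96, 12.17 and 13.86 in spontaneous tumours and 10.51, 11.39 and 11.87 in cobalt tumours, a difference of -1.19 (SE 0.333, 95% interval -1.91 to -0.46, limma adjusted p = 0.428). Spontaneous tumour 5 was the highest for both genes. Control lung was lower than every spontaneous tumour, at 9.32 ± 0.39 for Mt2 and 10.45 ± 0.24 for Mt1 (SD, n = 6). The Mt1 probe set is of a type whose probes can match more than 1 transcript, and a dimmer Mt1 probe set differed by -0.28 (SE 0.274). Mt3 and Mt4, both among the 6064 dimmest genes, differed by 0.07 (SE 0.073) and 0.09 (SE 0.087), with overlapping groups. Over the 20 measured genes of the metal response list, 0 were higher and 2 (10%), Mt1 and Mt2, were lower at an unadjusted p under 0.05. Over all genes 5.66% were lower. The median difference of the list was -0.04.

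The promoters of both genes hold the core of the metal response element, to which MTF1 binds. They are shown from RefSeq (build GRCm38.p6), 250 bases up to the annotated start, at chr8:94172368-94172617 for Mt2 and chr8:94178839-94179088 for Mt1, plus strand, with matches to TGCACNC or TGCGCNC on either strand in capitals.
Mt2: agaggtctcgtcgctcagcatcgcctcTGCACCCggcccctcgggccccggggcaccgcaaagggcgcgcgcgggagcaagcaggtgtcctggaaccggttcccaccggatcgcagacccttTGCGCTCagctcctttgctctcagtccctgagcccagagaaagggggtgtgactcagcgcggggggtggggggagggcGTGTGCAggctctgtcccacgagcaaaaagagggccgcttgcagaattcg
Mt1: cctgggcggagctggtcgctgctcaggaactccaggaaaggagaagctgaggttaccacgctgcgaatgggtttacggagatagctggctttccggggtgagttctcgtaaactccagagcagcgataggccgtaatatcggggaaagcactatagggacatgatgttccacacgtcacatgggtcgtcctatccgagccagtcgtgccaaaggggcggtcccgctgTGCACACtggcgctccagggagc
Mt2 has 3 matches in this stretch and Mt1 has 1. Matches beyond the stretch, on either side of it, were not counted, so these numbers do not compare the whole promoters of the genes. The short core is common: 4724 of 14452 promoter windows of tested genes (32.7%; 300 bases, 250 before the start and 50 after) hold it, and 8 of 16 windows of the metal response list do. A match is a description of the letters and not of binding.

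Targets of the hypoxia-inducible factors stood above control lung in both tumour groups and were not higher in cobalt tumours as a list. Of 34 measured genes, 1 (2.94%) was higher and 4 (11.8%) were lower in cobalt tumours at an unadjusted p under 0.05, beside 3.30% and 5.66% of all genes, with a median difference of -0.19 against 0 for all genes. Relative to the mean of the controls the list was at 0.56, 0.81 and 1.55 (lowest, median and highest) in spontaneous tumours and 0.52, 0.72 and 0.87 in cobalt tumours. Spontaneous tumours 3 and 6 were the highest, and without spontaneous tumours 2 and 6 the median difference was -0.06. Kdm3a, a histone demethylase on chromosome 6, was the higher gene, at 10.39, 10.86 and 11.49 in spontaneous tumours and 11.23, 11.97 and 12.27 in cobalt tumours (difference 0.94, 95% interval 0.45 to 1.43, limma adjusted p = 0.350).

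Ldha, which makes lactate in glycolysis, differed by -0.44 (95% interval -0.79 to -0.09, limma adjusted p = 0.470). Egln3, an oxygen-sensing prolyl hydroxylase, differed by -1.22 (-2.40 to -0.03, limma adjusted p = 0.542), with values of 8.90 to 12.19 in spontaneous and 8.19 to 9.92 in cobalt tumours against 5.91 ± 0.50 (SD, n = 6) in control lung. The Egln3 difference was -0.79 without spontaneous tumour 6 and -0.65 without spontaneous tumours 2 and 6. Vegfa, the vascular growth factor, differed by -0.08 (-0.49 to 0.32). Dimmer probe sets of Egln3 and Vegfa differed by -0.74 (SE 0.531) and -0.41 (SE 0.202). The core bound by these factors, ACGTG on either strand, was in 17 of 31 promoter windows of the list (54.8%) and in 3351 of 14452 windows of tested genes (23.2%).

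NRF2 targets and antioxidant enzymes were not higher as lists in cobalt tumours. Of 31 measured NRF2 targets, 0 were higher and 4 (12.9%) were lower in cobalt tumours at an unadjusted p under 0.05, beside 5.66% of all genes, with a median of -0.19. Those 4 were Me1, which makes NADPH (-0.65, limma adjusted p = 0.390), the pentose phosphate enzyme Taldo1 (-0.43, 0.463), the autophagy receptor Sqstm1 (-0.35, 0.463) and the epoxide hydrolase Ephx1 (-1.08, 0.466). Without spontaneous tumour 6 the median of the list was -0.02, and without spontaneous tumours 2 and 6 it was 0.02. Heme oxygenase, Hmox1, was at 8.62, 9.81 and 10.56 in spontaneous tumours and 9.20, 9.76 and 10.27 in cobalt tumours, fully overlapping, and both groups lay above control lung (8.0 ± 0.21, SD, n = 6). Its difference was 0.08 (95% interval -0.62 to 0.77), that of Gclc, an enzyme of glutathione synthesis, was 0.03 (-0.41 to 0.47; -0.09 in its other probe set), and that of Nqo1, a quinone reductase whose probe set was among the 6064 dimmest, was 0.30 (-0.19 to 0.80) and 0.09 without cobalt tumour 6. The intervals leave room for differences of over 1.5-fold in either direction for Hmox1.

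Among 26 antioxidant enzymes, 2 (7.69%) were higher, beside 3.30% of all genes, and 0 lower at an unadjusted p under 0.05, with a median of -0.09. Superoxide dismutase 1, Sod1, differed by 0.31 (95% interval 0.06 to 0.57, limma adjusted p = 0.472), and glutaredoxin, Glrx, by 0.63 (0.05 to 1.21, 0.525). Of 13 genes whose products make reactive oxygen species, 0 were higher and 2 (15.4%) were lower at that threshold, beside 5.66% of all genes. These were the subunits Ncf4 (-0.90, limma adjusted p = 0.350) and Cyba (-0.44, 0.435) of the phagocyte NADPH oxidase. The antioxidant response element core, TGACNNNGC on either strand, was in 7 of 25 promoter windows of the NRF2 list (28.0%) and in 2056 of 14452 windows of tested genes (14.2%). The promoter window of Liph held neither this core, ACGTG nor the metal response core, which describes its letters and not binding.

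Genes of the cell cycle were the list with the most members at an unadjusted p under 0.05, all lower in cobalt tumours. Of 44 measured genes, 0 were higher and 21 (47.7%) were lower, beside 5.66% of all genes, and 43 had a negative difference, with a median of -0.70. None passed the adjusted threshold. Mki67, the proliferation marker Ki-67, was at 8.45, 9.0 and 9.66 (lowest, median and highest) in spontaneous tumours and 6.20, 8.10 and 8.70 in cobalt tumours, a difference of -1.29 (95% interval -2.19 to -0.39, limma adjusted p = 0.463). The cyclins Ccnb2 and Ccna2, which drive mitosis and S phase, differed by -1.41 (-2.36 to -0.45) and -1.24 (-2.04 to -0.43), and Hmmr, a spindle protein, by -0.65 (-1.04 to -0.27). The limma adjusted p-values of these 3 genes ran from 0.417 to 0.463.

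The low cell cycle values sat mostly in a few arrays. Relative to the controls, the mean of the list was -0.08 in cobalt tumour 4 and -0.28 in cobalt tumour 6, while the other cobalt tumours were at 0.67 to 1.16 and the spontaneous tumours at 0.61, 1.2 and 1.85 (lowest, median and highest). Spontaneous tumours 2, 5 and 6 were the highest. Without cobalt tumour 6, 17 of the 44 genes were lower at an unadjusted p under 0.05. Without spontaneous tumours 2 and 6 there were 7, with a median of -0.48, and without all 3 of these arrays there were 3, with a median of -0.24. The count was 12 with array weights, 4 within the arrays with high Xist and 1 within those with low Xist. The high Xist arrays were 4 cobalt and 2 spontaneous tumours, and the low Xist arrays 2 and 4. Of all 18193 genes, 272 were lower at that threshold in the high Xist fit and 1064 in the low Xist fit.

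Promoters of genes expressed in G2 and mitosis often join CCAAT boxes, bound by NF-Y, with the cell cycle homology region, TTTGAA, bound by the DREAM complex. The Mki67 promoter shows both. It is given from RefSeq (build GRCm38.p6, chr7:135716380-135716629, minus strand, 250 bases up to the annotated start), with matches to TTTGAA and CCAAT on either strand in capitals.
Mki67: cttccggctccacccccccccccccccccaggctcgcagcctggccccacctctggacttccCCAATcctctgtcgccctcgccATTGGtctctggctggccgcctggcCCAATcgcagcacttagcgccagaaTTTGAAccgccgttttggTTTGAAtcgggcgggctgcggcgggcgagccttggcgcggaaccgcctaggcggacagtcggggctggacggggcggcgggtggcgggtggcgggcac
It has 2 matches to TTTGAA and 3 to CCAAT. Among 37 promoter windows of the cell cycle list, 18 (48.6%) held TTTGAA and 28 (75.7%) CCAAT, beside 13.3% and 38.2% of the 14452 windows of tested genes. The window of Liph, a gene higher in cobalt tumours, also held both.

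No macrophage gene passed the adjusted threshold, and those at an unadjusted p under 0.05 were all lower in cobalt tumours. Of 21 genes of alveolar macrophages, 0 were higher and 8 (38.1%) were lower at an unadjusted p under 0.05, beside 5.66% of all genes, with a median of -0.69, and of 25 genes of other macrophages and monocytes 0 were higher and 10 (40%) were lower, with a median of -0.42. Relative to the controls, the alveolar macrophage list was at 0.40, 0.86 and 2.04 (lowest, median and highest) in spontaneous tumours and -0.35, 0.45 and 0.78 in cobalt tumours. Spontaneous tumour 1 was the highest and cobalt tumours 1 and 4 the lowest, and the groups overlapped. The counts without cobalt tumour 6 were 9 and 11, and without spontaneous tumours 2 and 6 they were 13 and 10. The median of the alveolar macrophage list was -0.45 without spontaneous tumour 1 and -1.0 without spontaneous tumours 2 and 6. Within the arrays with high Xist the 2 counts were 0 and 2, beside 272 of all 18193 genes lower at that threshold. Within those with low Xist they were 10 and 9, beside 1064 of all genes.

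Arg1, an arginase of alternatively activated macrophages, was at 9.52, 11.12 and 12.50 in spontaneous tumours and 7.59, 9.45 and 9.75 in cobalt tumours, against 6.03 ± 0.97 (SD, n = 6) in control lung, a difference of -1.98 (95% interval -3.21 to -0.76, limma adjusted p = 0.428). Spontaneous tumour 4, the lowest of its group, lay below cobalt tumours 1, 2 and 5, and the other spontaneous tumours lay above every cobalt tumour. Il1rn, the interleukin 1 receptor antagonist, differed by -1.94 (-3.28 to -0.59, limma adjusted p = 0.463), and by -1.08 without spontaneous tumours 2 and 6, its highest arrays. The scavenger receptor Olr1 differed by -1.54, the Fc receptor Fcgr1 by -0.62 and the complement chain C1qb by -0.55, with limma adjusted p-values from 0.390 to 0.465.

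No gene of the cytokine, interferon response or matrix lists passed the adjusted threshold. Of 36 cytokines and chemokines, 0 were higher and 5 (13.9%) were lower at an unadjusted p under 0.05, beside 5.66% of all genes, with a median of -0.35. They included the neutrophil attractant Cxcl3 (-1.86) and Il1a (-1.05), whose probe set was among the dimmest whose groups did not overlap and whose difference was -0.52 without spontaneous tumours 2 and 6. Interferon response genes had a median of -0.37, and 24 of 26 were negative. Of them, 2 (7.69%) were lower at an unadjusted p under 0.05, beside 5.66% of all genes. Spontaneous tumour 2 held the highest mean of that list, 0.47 relative to the controls, and cobalt tumour 5 the next, 0.25, with the other tumours between -1.64 and -0.59. Without spontaneous tumours 2 and 6 the median of each of these lists was -0.16. Among neutrophil genes, Cxcr2, a chemokine receptor, was the 1 gene of 17 at an unadjusted p under 0.05. That is 5.88%, beside 3.30% of all genes higher. Cxcr2 was higher by 1.11 (95% interval 0.30 to 1.92, limma adjusted p = 0.465). The neutrophil list as a whole did not follow it, with 7 differences positive, 10 negative and a median of -0.14.

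Of 32 genes of fibroblasts and their matrix, 1 (3.12%) was higher and 5 (15.6%) were lower at an unadjusted p under 0.05. Over all genes 3.30% were higher and 5.66% lower. The median of the list was -0.28. It was -0.14 without spontaneous tumour 4, -0.17 without cobalt tumour 1 or 4, -0.44 without cobalt tumour 6 and -0.09 without spontaneous tumours 2 and 6. Postn, periostin of reactive stroma, was at 10.02, 10.70 and 11.56 in spontaneous tumours and 9.43, 9.90 and 10.03 in cobalt tumours (difference -0.95, 95% interval -1.48 to -0.42, limma adjusted p = 0.390), and the collagen-modifying protein Cthrc1 differed by -1.67 (-3.09 to -0.26). Tgfb1, the transforming growth factor that drives matrix production, did not overlap between the groups, at 8.81, 9.20 and 9.85 against 7.90, 8.59 and 8.77 (difference -0.77, 95% interval -1.16 to -0.39, limma adjusted p = 0.350). Vimentin, Vim, differed by -0.83 (-1.49 to -0.18), with spontaneous tumour 6 the highest array at 13.50. Tgfb1 and Vim are not members of the list of 32. In a list of epithelial and mesenchymal transition, 0 of 22 genes were higher and 3 (13.6%) lower at an unadjusted p under 0.05, beside 5.66% of all genes lower. Its differences were 11 positive and 11 negative, with a median of -0.08.

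Genes that report output of the MAP kinase pathway were above control lung in both groups as a list, and none passed the adjusted threshold between them. Of 24 measured genes, 2 (8.33%) were higher, beside 3.30% of all genes, and 0 lower at an unadjusted p under 0.05, with a median of 0.10. That median was 0.03 without spontaneous tumour 1, 0.04 without cobalt tumour 4, 0.21 without cobalt tumour 6 and 0.27 without all 3 arrays that stood apart. Dusp6, a phosphatase that ERK induces and that turns ERK off, was at 11.30, 11.57 and 12.15 in spontaneous tumours and 12.08, 12.70 and 12.96 in cobalt tumours, a difference of 0.91 (95% interval 0.48 to 1.34, limma adjusted p = 0.345). Cobalt tumour 6, the lowest of its group, lay below spontaneous tumours 2 and 4, and the other cobalt tumours lay above every spontaneous tumour. Egr1, an immediate early transcription factor, differed by 1.68 (0.18 to 3.19, limma adjusted p = 0.513), with cobalt tumour 4, at 8.25, among the low spontaneous values and the other cobalt tumours at 10.99 to 12.16.

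Relative to the controls the mean of the list ran from 0.63 to 1.51 in spontaneous tumours and from 0.55 to 1.78 in cobalt tumours, with cobalt tumour 6 the lowest of all. In the EGF receptor family and its ligands, 2 of 14 genes (14.3%) were higher at an unadjusted p under 0.05, beside 3.30% of all genes. These were the feedback inhibitor Errfi1 (0.71, 95% interval 0.27 to 1.15, limma adjusted p = 0.428) and the receptor Erbb3 (0.41, 0.08 to 0.73, 0.471). Egfr itself differed by -0.02 (-0.44 to 0.40). A dimmer probe set of Erbb3 differed by -0.03, and those of Egfr by -0.54 to 0.10.

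Among 28 p53 targets, 0 were higher and 3 (10.7%) were lower at an unadjusted p under 0.05, beside 5.66% of all genes, with a median of -0.19. Beside Phlda3, Ccng1, a cyclin that p53 induces, was at 10.81, 11.50 and 11.99 in spontaneous tumours and 10.28, 10.62 and 11.08 in cobalt tumours (difference -0.76, 95% interval -1.19 to -0.32, limma adjusted p = 0.406). In DNA repair, 1 of 21 genes (4.76%) was lower at an unadjusted p under 0.05, beside 5.66% of all genes. It was the glycosylase Neil1, which removes oxidised bases, at -0.39 with no overlap (limma adjusted p = 0.345).

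No gene of the respiratory chain passed the adjusted threshold, and those at an unadjusted p under 0.05 were lower in cobalt tumours by small amounts. Of 34, 0 were higher and 9 (26.5%) were lower at an unadjusted p under 0.05, beside 5.66% of all genes. The median was -0.19 and the range -0.36 to 0.31. Uqcrc2 of complex III and Sdhc of complex II each differed by -0.31, with limma adjusted p-values of 0.428 and 0.463, and Sdhc did not overlap between the groups. Without cobalt tumour 6 the count was 9, without all 3 arrays that stood apart 7 and without cobalt tumour 4 it was 5. Within the arrays with high Xist it was 1 and within those with low Xist 5, beside 272 and 1064 of all 18193 genes.

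Among transcripts of proteins that the liver makes for the blood, none passed the adjusted threshold. Of 24 measured genes, 5 (20.8%) were higher and 1 (4.17%) was lower at an unadjusted p under 0.05, beside 3.30% and 5.66% of all genes. The median of the list was 0.15. The median was 0.06 without cobalt tumour 3 and 0.35 without the dimmest genes. The kininogen Kng1 differed by 1.00 (95% interval 0.28 to 1.72), the hyaluronan-binding Itih2 by 1.63 (0.29 to 2.97) and the acute phase protein Orm1 by 1.38 (0.20 to 2.56), with limma adjusted p-values from 0.463 to 0.495 and overlapping groups. Control lungs spanned -0.84 to 1.48 for the mean of this list relative to their own average, wider than either tumour group. Cyp1b1, a cytochrome P450 that oxidises aromatic hydrocarbons and estrogens, differed by 1.49 (0.42 to 2.55, limma adjusted p = 0.463). In the list of genes that metabolise foreign compounds it was the 1 of 26 (3.85%) higher at an unadjusted p under 0.05, beside 3.30% of all genes. That list also had 1 gene lower, 9 differences positive, 17 negative and a median of -0.15. The cardiac myosin Myh7, at 6.99 to 10.87 in spontaneous and 9.86 to 11.85 in cobalt tumours, differed by 2.19 (0.68 to 3.70, limma adjusted p = 0.463) and by 1.33 without spontaneous tumours 2 and 6. Another heart muscle gene, Tnnt2, differed by -1.69 (-3.34 to -0.03, limma adjusted p = 0.547) and by -0.70 without those arrays, and the median of the 22 heart muscle genes was -0.09.

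**Figure D3:**
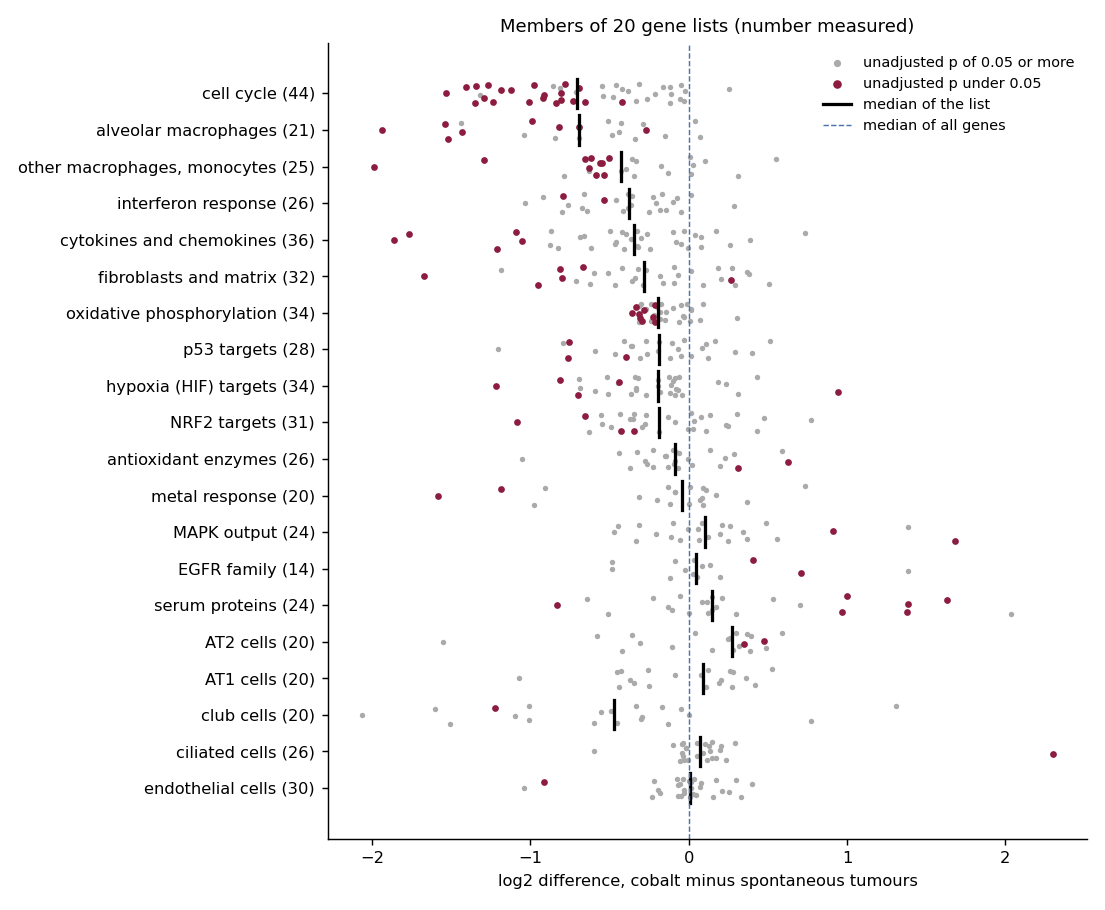
Log2 differences of cobalt minus spontaneous tumours for the members of 20 gene lists, with the number measured in parentheses, members at an unadjusted p under 0.05 in dark red and the median of each list as a black bar. The cell cycle and macrophage lists have their medians at -0.70, -0.69 and -0.42, and the dashed line is the median of all genes.

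The tumours carried the defining genes of alveolar type 2 cells. Sftpc, the surfactant protein that defines these cells, was at 14.28, 15.20 and 15.26 in spontaneous tumours and 14.99, 15.13 and 15.21 in cobalt tumours, near the top of the deposited values (15.26), so saturation could hide a difference, which was not tested. Of 20 type 2 genes, 2 (10%) were higher, beside 3.30% of all genes, and 0 lower in cobalt tumours at an unadjusted p under 0.05. These were surfactant protein Sftpb (0.35) and the protease Ctsh (0.48), which differed by 0.17 and 0.25 without spontaneous tumours 2 and 6. Relative to the controls the mean of the list was -0.20 and -0.39 in spontaneous tumours 2 and 6, 0.87 to 1.28 in the other spontaneous tumours and 0.50 to 0.84 in cobalt tumours. The median difference was 0.27 with all arrays, 0.11 without spontaneous tumour 2, 0.09 without spontaneous tumour 6 and -0.21 without spontaneous tumours 2 and 6.

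Spontaneous tumours 2 and 6 also held the highest means of the list of injured and regenerating epithelium, 2.61 and 2.17 relative to the controls. The other spontaneous tumours were at 0.27 to 0.68, and cobalt tumours 4 and 5, at 1.52 and 1.70, were the highest of the cobalt tumours. Without spontaneous tumours 2 and 6 the median difference of that list went from -0.09 to 0.56.

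Genes of endothelial, ciliated and type 1 cells lay below control lung in both groups, least so in cobalt tumour 6. Endothelial genes were at -3.25 to -2.16 relative to the controls in cobalt tumours 1 to 5 and at -1.05 in cobalt tumour 6, against -3.00 to -1.80 in spontaneous tumours. Ciliated cell genes were at -2.38 to -1.89 in cobalt tumours 1 to 5 and -0.54 in cobalt tumour 6, against -2.40 to -1.38 in spontaneous tumours. Type 1 cell genes were at -0.12 in cobalt tumour 6 and -2.34 to -1.38 in the other cobalt tumours. Without cobalt tumour 6 the median differences of the endothelial, ciliated and type 1 lists went from 0.01, 0.07 and 0.09 to -0.27, -0.18 and -0.16. The part of normal lung RNA in the differences of other genes was not tested.

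Ager, the receptor of type 1 cells, differed by 0.53 (95% interval -0.18 to 1.23) and by 0.27 without spontaneous tumour 2. Scgb1a1, the secretoglobin of club cells, was at 12.62 to 14.78 in spontaneous tumours and 9.97 to 14.97 in cobalt tumours and differed by -1.01 (-2.94 to 0.92), or by -0.41 without cobalt tumour 1 and -0.47 without cobalt tumour 4. The 20 club cell genes had a median of -0.47, with 1 (5%) lower at an unadjusted p under 0.05, beside 5.66% of all genes. Leaving out 1 array moved that median to between -0.84, without cobalt tumour 6, and -0.24, without cobalt tumour 4, and it was -1.08 without all 3 arrays that stood apart. The mean of the list relative to the controls ran from -2.65 to 0.18 in cobalt tumours, a wider range there than that of the endothelial, ciliated or type 1 lists.

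**Figure D4:**
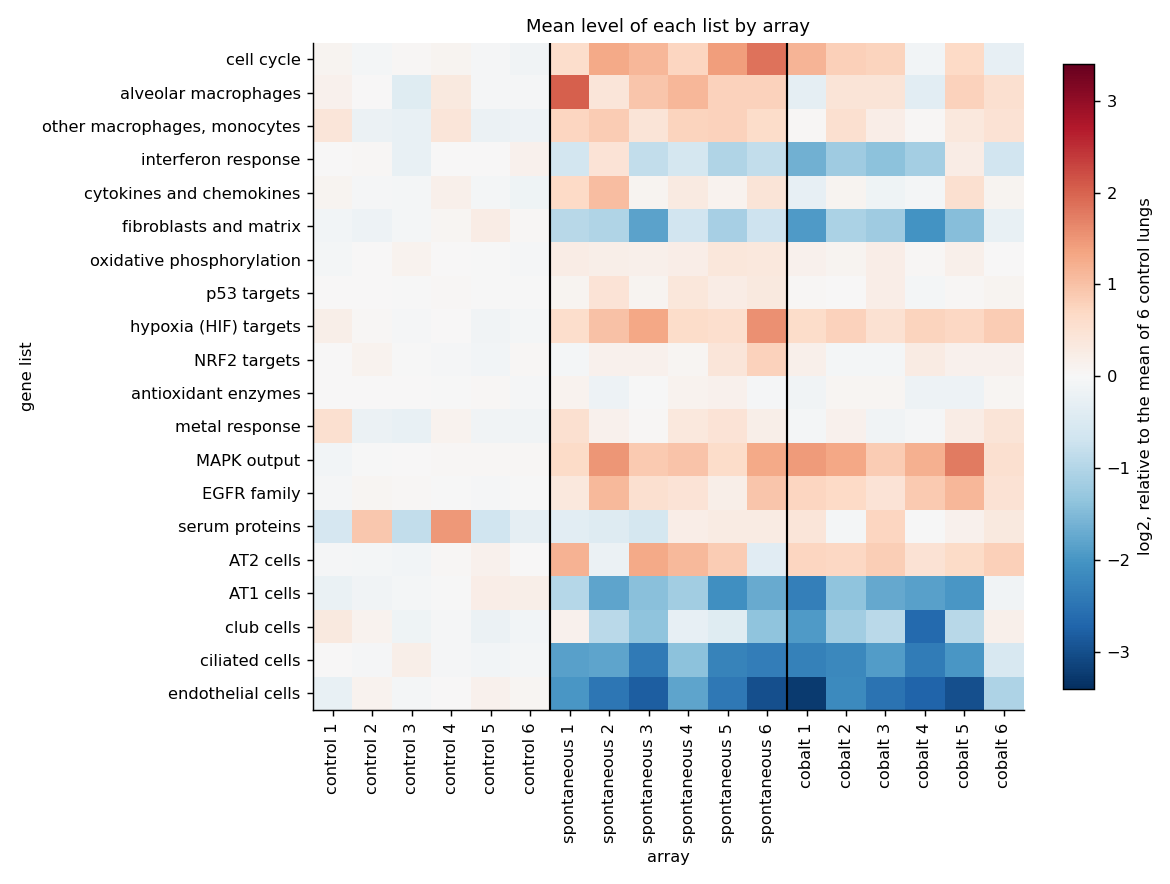
Mean level of 20 gene lists in each of the 18 arrays, relative to the mean of 6 control lungs, in log2 units (red above, blue below). Cobalt tumour 6 is paler than the other tumours for endothelial (-1.05), ciliated (-0.54) and type 1 (-0.12) cell genes, and spontaneous tumours 2 and 6 lack the red of the other tumours for type 2 cell genes.

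The median correlation across genes was 0.967 for the 15 pairs of cobalt tumours, 0.953 for the 15 pairs of spontaneous tumours and 0.960 for the 36 pairs of a cobalt with a spontaneous tumour. It was 0.974 for cobalt pairs without cobalt tumour 6 and 0.978 for spontaneous pairs without spontaneous tumours 2 and 6. The median SD of a gene was 0.221 in cobalt tumours and 0.191 without cobalt tumour 6, and 0.220 in spontaneous tumours and 0.179 without tumours 2 and 6. An SD over 1 log2 unit was found for 641 genes in cobalt and 750 in spontaneous tumours, falling to 394 and 290 without those arrays.

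Sex-linked RNA was unequal between the groups. Xist, which is transcribed from the inactive X chromosome, was above a log2 value of 10 in 4 of 6 cobalt tumours, 2 of 6 spontaneous tumours and 6 of 6 control lungs, and 3 Y-linked genes were high in the remaining tumours. A test of whether the difference between cobalt and spontaneous tumours itself differed between the high and low Xist arrays called 0 genes with limma, at a smallest adjusted p of 1.00, and 549 genes had an unadjusted p under 0.05. Liph differed by 0.97 among the high Xist arrays and 1.21 among the low Xist arrays, and by 1.09 with the level of Y-linked RNA as a covariate, where its limma adjusted p was 0.137.

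Differences ran together along some chromosomes. This pattern was looked for after the values had been seen and was not tested. Among 12129 genes outside the 6064 dimmest, 3.61% were higher and 7.63% lower in cobalt tumours at an unadjusted p under 0.05. For the 634 such genes on chromosome 6, 69 (10.9%) were higher and 18 (2.84%) lower, with a median difference of 0.12. In the first, second and last parts of the chromosome by gene order the medians were 0.11, 0.13 and 0.12. Tmem176b, Gkn2, Kdm3a and Sftpb, higher in cobalt tumours above, and Olr1, lower, lie on this chromosome.

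The median chromosome 6 gene stood 0.23 to 0.38 log2 units above the controls in cobalt tumours 1 to 5 and 0.26 to 0.35 above in spontaneous tumours 4, 5 and 6. In spontaneous tumours 1, 2 and 3 and in cobalt tumour 6 it was at -0.06 to 0.07, and control lungs ranged from -0.06 to 0.04. So 5 of 6 cobalt and 3 of 6 spontaneous tumours had the higher level, and the groups overlapped. The share of chromosome 6 genes above their control mean was 63.9% to 69.4% in cobalt tumours 1 to 5, 51.1% in cobalt tumour 6 and 46.5% to 67.7% in spontaneous tumours, beside 48.7% to 53.4% of all genes over the 12 tumours.

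On some other chromosomes a single tumour or a few tumours stood apart. Chromosome 1 was at 0.30 in spontaneous tumour 5, with the other spontaneous tumours at 0.05 to 0.08. Of its genes, 15.7% were lower in cobalt tumours at an unadjusted p under 0.05, beside 7.63% over all chromosomes. Chromosome 8, home of Mt1 and Mt2, was at 0.28 and 0.30 in spontaneous tumours 2 and 5 and at 0.11 or below in all other tumours, and 13.8% of its genes were lower. Whether these shares rest on the tumours that stood apart was not tested. Chromosome 12 was at 0.33 in spontaneous tumour 6 and 0.28 in cobalt tumour 3, and chromosome 17 at 0.31 and 0.30 in cobalt tumours 2 and 4. Chromosome 4 was below the controls in several tumours of both groups, at -0.25 in spontaneous tumour 3 and -0.33 in cobalt tumour 3.

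**Figure D5:**
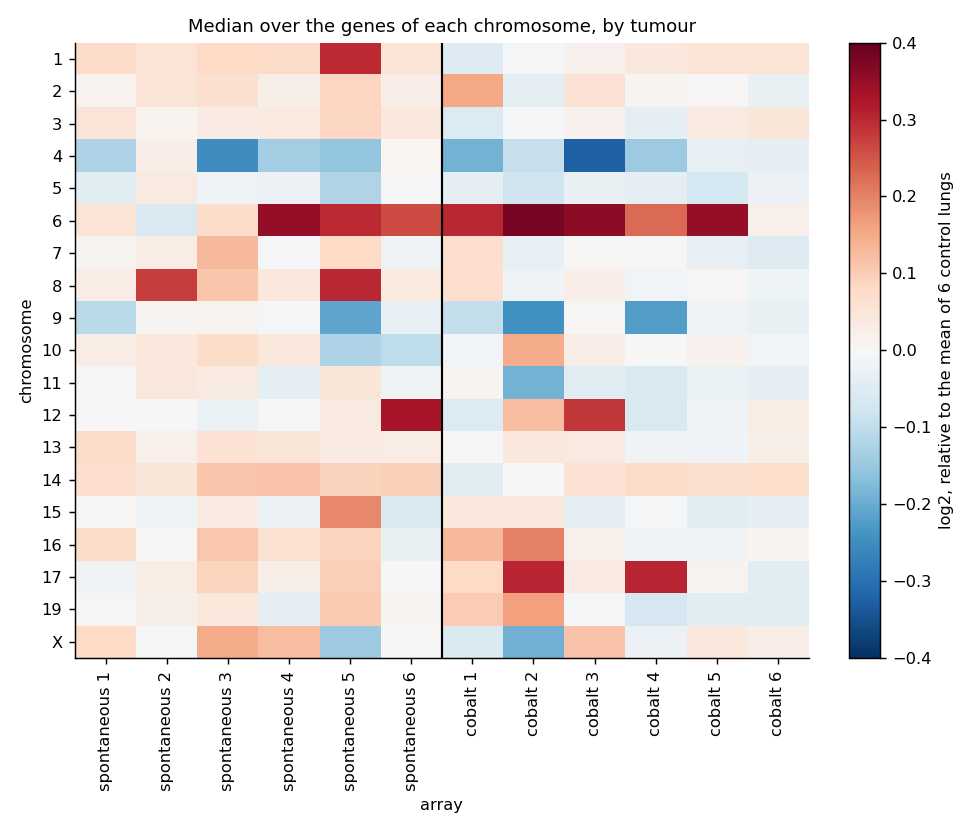
Median log2 value of the genes of each chromosome outside the 6064 dimmest, relative to the mean of 6 control lungs, in each of 12 tumours. Chromosome 6 is red in cobalt tumours 1 to 5 (0.23 to 0.38) and spontaneous tumours 4, 5 and 6 (0.26 to 0.35); chromosome 18 is not shown.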

How the data were processed

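RNA of 18 samples, 6 per group by their titles, was measured on 1 array each. The authors deposited log2 values, and the submitters' processing notes name RMA with no version. Its settings are unknown, scanner files were not used here, and dim or saturated probe sets understate differences. Array medians lay between 6.32 and 6.45. Of 45101 probe sets, 34945 had a single symbol in the platform annotation, 34741 of them matched RefSeq by Entrez identifier, and 18193 genes remained. Depth does not apply to arrays, whose number limits the precision.

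Differences were tested with limma 3.58.1 in R 4.3.3 (functions lmFit and eBayes), two-sided, with Benjamini-Hochberg over all genes at 0.05, after tests on simulated data. The study's design names ORIOGEN, which was not run. The members, the 46 lists and the naming rule were chosen with earlier results of these data known. Named genes had the smallest p in each direction outside the dimmest genes (up to 10), were up to 3 members of a list in each direction (5 for some lists), or belonged to a set always named, such as Egfr, Hmox1 and Sftpc. One gene that the rule names is not reported here. Of 1132 list entries, 104 were not measured. Lists got counts and medians, with no set test. Where a gene had several promoters, the first in the RefSeq table was used, and chromosome 18 was left out there and in the chromosome medians. The CCAAT box, cell cycle homology and metal response motifs were added after values were seen. Replicate numbers did not pair the tumours: same-numbered deviations correlated at -0.34 to 0.20. Alternatives are listed with their effects in the closing section.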

Additional observations from a re-analysis of the deposited data

Results flagged for a closer look

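In 18 of 194 groups of 6 tumours, over 97 genes, lists and chromosomes, the gap between the outermost array and its neighbour exceeded Dixon's 95% critical share of the range. Chance gives about 1 in 20 for independent groups of normal values. Groups here share arrays and genes, and many genes were named for their p, so the counts cannot be judged against that rate. All values are log2.

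Spontaneous tumour 5 was highest for Mt1 at 13.86 (others 11.96 to 12.35), Mt2 at 12.99 (10.82 to 11.57), Sdhc at 11.20 (10.61 to 10.74) and the median of chromosome 1 at 0.30 (0.05 to 0.08). Spontaneous tumour 6 was highest for Vim at 13.50 (11.58 to 12.15), Egfr at 8.64 (7.31 to 7.74) and the median of chromosome 12 at 0.33 (-0.03 to 0.04), and lowest for Scly at 7.25 (7.49 to 7.54). Spontaneous tumour 2 was highest for Errfi1 at 12.72 (11.53 to 11.90) and the interferon response list at 0.47 (-1.01 to -0.59).

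Among cobalt tumours, cobalt tumour 6 was highest for Tnnt2 at 8.25 (5.14 to 5.69), the dim gene Nqo1 at 6.58 (4.89 to 5.49) and the ciliated cell list at -0.54 (-2.38 to -1.89). Cobalt tumour 4 was lowest for Egr1 at 8.25 (10.99 to 12.16) and Tgfb1 at 7.90 (8.45 to 8.77). Cobalt tumour 2 was lowest for Ppp1r32 at 6.68 (7.23 to 7.54) and highest for C1qb at 10.17 (9.43 to 9.71), and cobalt tumour 1 was highest for Sod1 at 12.43 (11.87 to 12.03).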

How the results depend on the processing

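Liph was higher in cobalt tumours under all 25 alternatives, by 0.93 to 1.21, and was called under 4 of them, with adjusted p from 0.000836 to 0.994. The counts of genes higher, lower and at least 2-fold apart at adjusted p under 0.05 (1, 0 and 1) were 8, 7 and 6 in the fit over all 18 arrays. They were 0, 4 and 2 without spontaneous tumours 2 and 6 (Apobr, Exoc8, Adam19 and Tbx15, the last 3 named after their values were seen), and 0, 2 and 2 (Apobr and Adam19) without cobalt tumour 6 as well. They were 0, 0 and 0 with probe sets averaged per gene (Liph 0.93, adjusted p 0.132), trend and robust options (1.07, 0.0671), array weights (0.94, 0.0858), the replicate block (1.07, 0.181), the Y-linked covariate (1.09, 0.137), high Xist arrays alone (0.97, 0.994), low Xist arrays alone (1.21, 0.362), cobalt tumour 6 left out (1.04, 0.130), the exact permutation test (1.07, 0.352) and each probe set tested on its own. Liph was at 0.98 without spontaneous tumours 2 and 6 (adjusted p 0.0933) and 0.95 without all 3 (0.0922). Leaving out each array in turn gave 0 to 2 genes higher, 0 lower and 0 to 1 at least 2-fold apart, with Liph at 1.00 to 1.13; without cobalt tumour 2, Liph (0.0232) and Ppp1r32 (0.0134) were called, and without any other array Liph was not. The cause of these changes was not tested. Pairing the arrays by number has no basis in the labels or the data.

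Of 75 genes printed, 68 kept their sign under every alternative. Many were named for a small p on these same arrays, which favours a kept sign, so the count is not independent support. The 7 that turned all belong to the set always named. Hmox1 turned negative with low Xist arrays alone (-0.33), without spontaneous tumours 2 and 6 (-0.37) and without all 3 (-0.30), and ran from -0.13 to 0.26 when each array was left out. Gclc turned with probe sets averaged (-0.029), array weights (-0.019) and high Xist arrays alone (-0.30), and ran from -0.055 to 0.14 when each array was left out. Egfr turned positive with cyclic loess (0.007), array weights (0.07), low Xist arrays alone (0.092), without spontaneous tumours 2 and 6 (0.21) and without all 3 (0.16), and ran from -0.11 to 0.16 when each array was left out. Vegfa turned without spontaneous tumours 2 and 6 (0.008) and ran from -0.21 to 0.005 when each array was left out, Sftpc without spontaneous tumours 2 and 6 (-0.10) and without all 3 (-0.11), Ager without all 3 (-0.031) and Scgb1a1 with high Xist arrays alone (0.19).

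The cell cycle count of 21 was 12 without dim genes and 16 to 26 when each array was left out. Leaving out dim genes also took members out of the list, and the median of those that remained was -0.55. The alveolar macrophage count of 8 was 13 with array weights and 5 to 11 when each array was left out; the count of 10 for other macrophages was 5 with cyclic loess, 6 with the replicate block and 5 to 11. The respiratory chain count of 9 was 5 to 12 when each array was left out. The median of chromosome 6 was 0.07 to 0.17 under its alternatives, which were chosen after seeing the data.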
